A study of Rattus norvegicus with 12 samples.

Results

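In transgenic β-synuclein-reactive CD4+ T cells of the rat, 65 of the 32754 gene rows in each file were high in every brain parenchyma library and lower in every blood and meninges library. They were chosen from the measured values themselves. Levels are given as CPM, the count of a row divided by the total of its file and multiplied by 1000000. A row was taken when its lowest parenchyma library had at least 5 CPM, and when that value, with 0.5 CPM added, was at least 2.5 times the highest of the 6 transgenic blood and meninges libraries, with the same amount added. The parenchyma values below are therefore a description of what was selected, and the difference of the parenchyma from transgenic blood and meninges is not a finding about these genes.

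The study sequenced messenger RNA of sorted T cells of LEW/Crl rats 3 days after the cells were given intravenously. Each of 4 groups has 3 libraries, 12 in all. They hold blood cells of the wild-type (wt) genotype, and cells with the b-syn TCR Tg genotype (a transgenic T cell receptor for β-synuclein) taken from blood, meninges and brain parenchyma. Only blood was sequenced for the wild-type cells. All groups are T cells reactive to β-synuclein and sorted after transfer, and the sources used here do not say how the wild-type cells were obtained, what drives the transgene or whether animals were pooled. The titles of the parenchyma samples carry the digit 4 where all others carry 3. Its meaning is not given, and if it marks a day, tissue and day cannot be told apart in the parenchyma. A TruSeq and a low-input kit are both named, and the kit of each library is not, so kit and group cannot be told apart either. Nothing says that replicates came from separate animals, and p-values then measure only the spread between these libraries, which may be technical.

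T cells that recognise a protein of the central nervous system circulate in blood, gather in the meninges, the membranes that cover the brain, and can cross into the parenchyma, the nervous tissue itself. There, cells that present antigen can stimulate the T cell receptor again, which in T cells generally switches on early transcription factors, cytokines and surface receptors. β-Synuclein is a protein of nerve endings, found throughout grey matter. Genes appear in the files as Ensembl rat identifiers without names, and the RefSeq table used here held 0 such identifiers. The functions of the 65 genes, marker genes of T cells and of other cell types, and the genes' sequences are therefore not analysed here, and in these bulk samples a change in the mixture of cells and a change in RNA per cell cannot be told apart.

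Totals ran from 16643832 to 38601400 counts per library, with 19054156 to 27761421 in the parenchyma. Together the 65 genes took 0.796% of all counts in parenchyma replicate 1, 0.818% in replicate 2 and 1.02% in replicate 3. Their share was 0.136% ± 0.0155 in the meninges, 0.0597% ± 0.00159 in transgenic blood and 0.0845% ± 0.00291 in wild-type blood (SD, n = 3 each). The 3 members with the highest mean count in the parenchyma held on average 43.8% of the members' counts there. Without them, parenchyma libraries held 0.490% ± 0.0381, meninges libraries 0.0757% ± 0.00956, transgenic blood libraries 0.0308% ± 0.00157 and wild-type blood libraries 0.0527% ± 0.00293 (SD, n = 3 each). Without the 10 highest, the meninges held 0.0439% ± 0.00718 and wild-type blood 0.0472% ± 0.00271 (SD, n = 3 each), so the order of these groups by summed share rested on the most abundant members. The median member lay at 38.1, 39.1 and 40.8 CPM in the parenchyma libraries, between 4.34 and 4.69 CPM in the meninges, between 1.32 and 1.71 CPM in transgenic blood and between 1.04 and 1.54 CPM in wild-type blood. The middle of the list thus varied little between libraries of a group, and by this median, in which each gene counts once, the meninges lay above both kinds of blood.

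**Figure D1:**
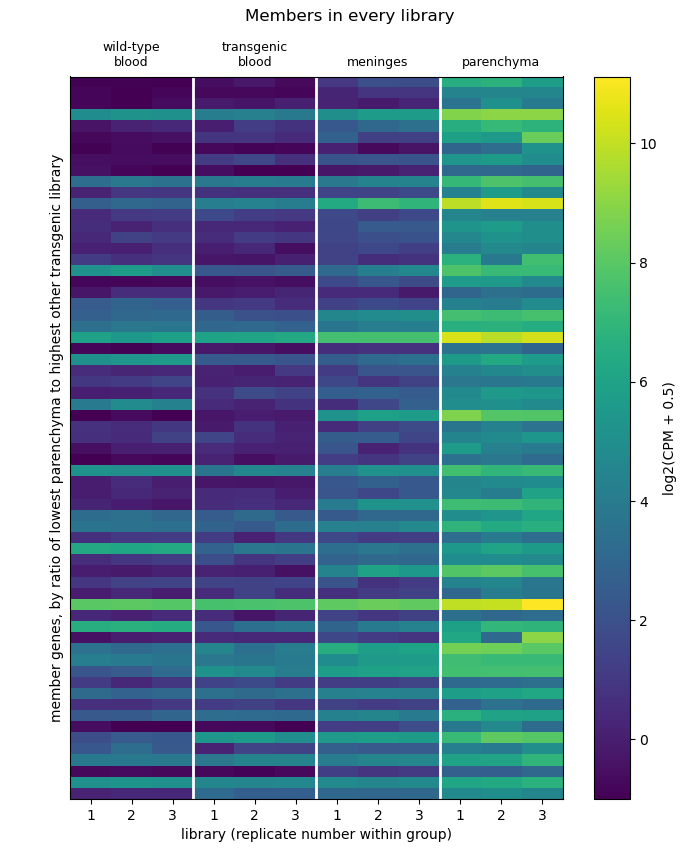
Heat map of log2(CPM + 0.5) for the 65 members (rows, with the highest ratio of lowest parenchyma to highest other transgenic library at the top) in the 12 libraries (columns, replicates 1 to 3 of each group). The parenchyma columns are brightest by construction, and the meninges columns are brighter than those of transgenic blood in many rows.

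In the parenchyma, the members averaged between 3.55 and 334-fold their level in transgenic blood, with a median of 13.4-fold, and between 2.98 and 85.1-fold their level in the meninges, with a median of 6.39-fold (ratios of mean CPM with 0.5 added). The meninges set the ceiling for most of them: the highest of the 6 other transgenic libraries was a meninges library in 59 members and a blood library in 6. How often a meninges library is the highest of these 6 among all genes was not counted, so this split only describes the list. A ratio of lowest parenchyma to highest other library of at least 5 was met by 23 members, and 17 lay below 3. All 65 passed the test of edgeR in parenchyma against blood, where 18.7% of the 11809 genes tested were called higher. The rule used this contrast, and nothing is read from the count.

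The clearest separation was found in ENSRNOG00000010128 and ENSRNOG00000011130, which ranked highest by this ratio. ENSRNOG00000010128 had 93.3, 110.03 and 55.8 CPM in the parenchyma, meninges libraries of 1.53, 3.42 and 3.29 CPM and 0.188, 0.391 and 0.119 CPM in transgenic blood. In wild-type blood it had 1, 1 and 0 counts. Its lowest parenchyma library was 14.3 times its highest meninges library on the scale of the rule. ENSRNOG00000011130 was more even in the parenchyma, at 20.9, 22.3 and 23.1 CPM, and had 0.681, 1.26 and 1.31 CPM in the meninges. It had 2, 2 and 1 counts in the transgenic blood libraries, and the ratio of pooled parenchyma to pooled blood counts was 260.5-fold (exact binomial 95% interval 111 to 803, which covers counting error only). The gene was chosen by its parenchyma values against the other tissues, and the interval does not allow for that choice. The only other member with a ratio of at least 10 was ENSRNOG00000013954, named after its values were seen, at 11.8, 33.2 and 15.2 CPM in the parenchyma and no more than 0.7003 CPM in the meninges or 0.534 CPM in transgenic blood.

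Outside the parenchyma, low levels were more frequent among the members in blood than in the meninges. Shares over all genes were not counted for the levels in this paragraph, and the rule capped transgenic blood and meninges. Such counts therefore only describe the list. Below 1 CPM in every library of the group were 22 members in transgenic blood, 26 in wild-type blood and 4 in the meninges. At most 3 counts in every transgenic blood library were found in 4 members, ENSRNOG00000011130, ENSRNOG00000013748, ENSRNOG00000004647 and ENSRNOG00000019778, and no member was at 0 in all 3 (0 members). The 4 members below 1 CPM in every meninges library were ENSRNOG00000013954, ENSRNOG00000013748, ENSRNOG00000017683 and ENSRNOG00000059827. Both sets were named after their values were seen. ENSRNOG00000017683 illustrates the second set: it had 7.71, 8.10 and 6.88 CPM in the parenchyma, meninges libraries of 0.340, 0.421 and 0.639 CPM, and 4, 0 and 0 counts in transgenic blood. At the other end, 20 members had 10 CPM or more in every meninges library and 12 in every transgenic blood library, so that these transcripts were well above detection in other groups too. ENSRNOG00000010331 and ENSRNOG00000021334, which had the highest mean CPM in the parenchyma, were of this kind, and not every abundant member was. ENSRNOG00000010331 had 1003, 1048 and 2229 CPM in the parenchyma, meninges libraries of 273, 328 and 290.5 CPM, 192, 200.2 and 213 CPM in transgenic blood and 262, 269 and 243 CPM in wild-type blood. Its parenchyma replicate 3 stood far above the other parenchyma libraries, and the other groups lay close together. ENSRNOG00000021334 had 951, 1496 and 1344 CPM in the parenchyma, meninges libraries of 85.1, 156.9 and 119.8 CPM, 17.6, 20.3 and 16.7 CPM in transgenic blood and 5.83, 7.65 and 6.78 CPM in wild-type blood, and none of the 4 groups overlapped another. These CPM values are not corrected for gene length and do not rank the genes against each other.

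The edge of the list was not a gap. Just inside the limit of 2.5, ENSRNOG00000014835 had a ratio of 2.52, with a lowest parenchyma library of 23.4 CPM against a highest other library of 8.997 CPM, and ENSRNOG00000001252 a ratio of 2.57. Just outside, ENSRNOG00000046377 had a ratio of 2.49, at 33.5 against 13.2 CPM, and ENSRNOG00000010897 a ratio of 2.44.

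The parenchyma libraries did not agree equally well on all members. The highest parenchyma library exceeded the lowest by a median of 1.57-fold among the 65, and by a median of 1.28-fold among the 8723 rows with at least 5 CPM in every parenchyma library. A spread above 2-fold was seen in 13 members (20%) and in 6.83% of those rows. Replicate 2 was the highest of the 3 in 29 members (44.6%), replicate 3 in 22 (33.8%) and replicate 1 in 14 (21.5%). Among the 8723 rows, replicate 2 was the highest in 42.9%, replicate 3 in 25.003% and replicate 1 in 32.1%. The share for replicate 2 was thus near that of these rows and is not particular to the members. Above 5-fold were 4 members (6.15%), named after their values were seen, and 0.573% of the 8723 rows. Replicate 3 was highest in each of the 4 members. Which replicate was highest among all rows with such a spread was not counted, so this only describes these members. ENSRNOG00000008837 had 74.7, 8.29 and 521 CPM in parenchyma replicates 1, 2 and 3, with at most 2.60 CPM in the meninges, a 62.9-fold spread, where the median ratio of parenchyma to blood over the list was 13.4-fold. ENSRNOG00000002045 had 107, 14.4 and 172 CPM, ENSRNOG00000005871 had 59.4, 47.0 and 325 CPM, and ENSRNOG00000013748 had 7.03, 9.48 and 35.3 CPM. For these genes the mean over the parenchyma describes no single library well, and replicate 2 was the lowest in ENSRNOG00000008837, ENSRNOG00000002045 and ENSRNOG00000005871.

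**Figure D2:**
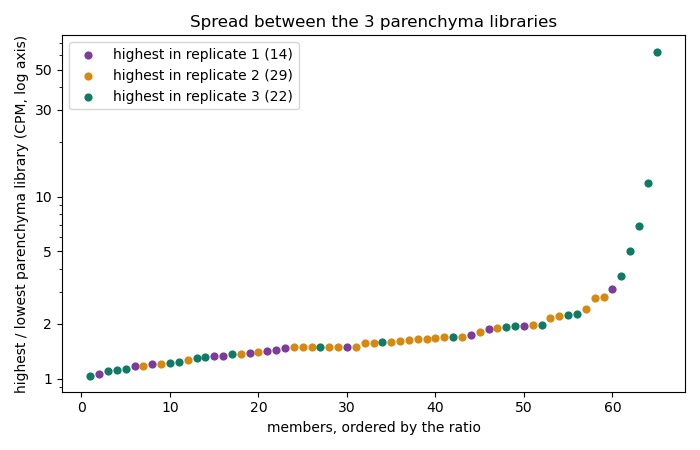
Ratio of the highest to the lowest parenchyma library (CPM, log axis) for each of the 65 members, ordered by this ratio and coloured by the replicate with the highest value. Most members lie below 2, and the 4 members above 5 are all highest in replicate 3.

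Replicate 2 of the parenchyma also decided how long the list was. Without it, the rule took 176 genes in place of 65, against 84 without replicate 1 and 71 without replicate 3. The 111 genes added in its absence had medians of 11.9 CPM in replicate 1, 2.06 CPM in replicate 2 and 50.8 CPM in replicate 3, with 1.04 CPM in the meninges and 0.346 CPM in transgenic blood (medians of group means). In replicate 2, 92 of them were below 5 CPM and 23 below 1 CPM, and 107 were highest in replicate 3. The rule kept such genes out by asking for every library. The cause of the difference between these libraries was not tested.

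Meninges and blood were then compared within the transgenic cells, to ask whether genes chosen for the parenchyma also differed between these groups. Of the 65 members, 35 were higher in the meninges than in blood (edgeR's quasi-likelihood test, Benjamini-Hochberg adjusted p under 0.05), or 53.8%, against 4.76% of the 11809 genes tested. None was called lower (0 members, also 0 at an unadjusted p under 0.05 and 0 with DESeq2), against 1.75% of the genes tested. The median log2 fold change, meninges minus blood, was 1.58 among the members and 0.00 among all genes tested, and 64 of 65 members were above 0. The rule did not compare these groups with each other, but it set a ceiling for both from the same libraries, and members low in both passed the filter on low counts through the parenchyma. In a fit of only the 6 meninges and blood libraries, in which the parenchyma could not carry a gene past the filter, 63 members were tested and 38 called higher (60.3%), against 6.97% of the 11317 genes tested in that fit, and 0 were called lower, against 4.12%.

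The members called higher ranged from a log2 fold change of 1.02 to 6.99, and 17 exceeded 2. Those that differed most were ENSRNOG00000036942 and ENSRNOG00000027024. ENSRNOG00000036942 had 0.330, 0.440 and 0.415 CPM in transgenic blood, 37.5, 56.8 and 52.0 CPM in the meninges and 432, 235 and 229 CPM in the parenchyma. The 3 tissues did not overlap, and each step was a large one. Its log2 fold change from blood to meninges was 6.99 (SE 0.37, edgeR adjusted p = 1.50e-05). The 23 pooled counts in blood gave a 123-fold ratio of pooled counts (exact 95% interval 82.0 to 195, which covers counting error only). The interval does not allow for the choice of this gene by its fold change. ENSRNOG00000027024 had 0.612, 0.538 and 0.237 CPM in transgenic blood, 20.8, 62.1 and 43.1 CPM in the meninges and 227, 269 and 196 CPM in the parenchyma, with a log2 fold change from blood to meninges of 6.49 (SE 0.47, edgeR adjusted p = 7.78e-05). ENSRNOG00000010128 and ENSRNOG00000011130, the members that stood highest above the other tissues in the parenchyma, were also higher in the meninges than in blood, with log2 fold changes of 3.55 (SE 0.49, edgeR adjusted p = 0.00256) and 3.63 (SE 0.36, edgeR adjusted p = 0.000455).

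The other 30 members did not pass the threshold in this comparison. Their log2 fold changes ran from -0.08 to 2.76, with a median of 0.64, which does not show that levels were equal. ENSRNOG00000050534 had 9.87, 13.3 and 10.7 CPM in the meninges and 6.59, 13.6 and 12.3 CPM in blood, which overlapped (log2 fold change 0.12, SE 0.26), while its parenchyma libraries had 44.2, 66.3 and 47.4 CPM. ENSRNOG00000017683 had a log2 fold change of 2.76 (SE 0.77, edgeR adjusted p = 0.0652), on 4, 0 and 0 counts in blood and 8, 7 and 21 in the meninges. It passed the filter on low counts only through its parenchyma libraries, and nothing is read from its test. For ENSRNOG00000008837 the log2 fold change was 1.20 with an SE of 1.499. On the log2(CPM + 0.5) scale, the median member had covered 0.275 of the distance between blood and parenchyma in the meninges (interquartile range 0.172 to 0.374). The ceiling of the rule limits how high this position can be.

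**Figure D3:**
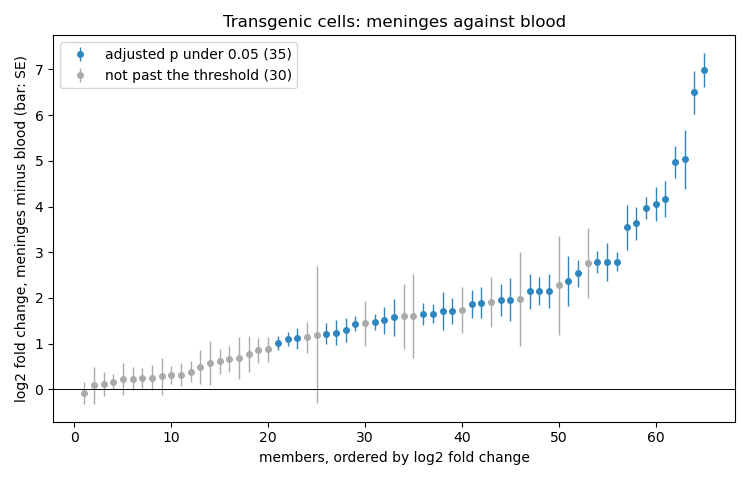
Log2 fold change from transgenic blood to meninges for each of the 65 members, ordered by size, with bars for the standard error (SE), from the edgeR fit of the 9 transgenic libraries. The 35 members past the threshold are all above 1, and the 30 others lie between -0.08 and 2.76.

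The wild-type blood libraries took no part in the choice of the genes. In 62 of the 65 members every wild-type blood library was below every parenchyma library, which was so for 30.6% of the 11809 genes tested in the transgenic libraries. The parenchyma values in this count are those the rule used, and genotype and tissue cannot be told apart in it. The limit of 2.5 was also met against wild-type blood by 58 members and missed by 7. It uses the same parenchyma values, and the share of all genes that meet it was not counted, so nothing is read from this count. In 3 members, named after their values were seen, a wild-type library reached the range of the parenchyma. ENSRNOG00000050534 had 78.9, 72.1 and 77.9 CPM in wild-type blood, above all of its parenchyma libraries (44.2, 66.3 and 47.4 CPM), and 6.59, 13.6 and 12.3 CPM in transgenic blood. ENSRNOG00000012964 had 94.3, 104.7 and 89.2 CPM in wild-type blood, within the range of its parenchyma libraries at 58.7, 129.8 and 116 CPM, and 4.47, 10.3 and 12.9 CPM in transgenic blood. ENSRNOG00000026759 had 15.6, 28.1 and 19.3 CPM in wild-type blood and 29.9, 33.9 and 26.7 CPM in the parenchyma, with 0.848, 0.636 and 1.19 CPM in transgenic blood. These 3 genes were low in transgenic blood and meninges only, among the 4 groups.

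The genotypes were compared in blood, the tissue sequenced for both. Of the 65 members, 54 passed the filter on low counts, and the 11 others had at most 0.612 CPM in any blood library. In transgenic blood, 15 of the 54 were lower than in wild-type blood (27.8%), against 12.8% of the 11618 genes tested, and 8 were higher (14.8%), against 13.1% of the genes tested (edgeR, Benjamini-Hochberg adjusted p under 0.05). The share that was higher was near that of all genes in this fit. The rule set a ceiling on transgenic but not on wild-type blood, which by itself favours lower calls. The median log2 fold change, transgenic minus wild-type, was -0.01 among the members tested and -0.01 among all genes tested, with 26 of the 54 above 0 and 28 below. The 11 members not tested are outside this median, and 9 of them had a higher mean CPM in transgenic than in wild-type blood. Without the filter on low counts all 65 were tested, and 14 were higher (21.5%), against 9.25% of the 18127 genes tested in that fit, and 15 lower (23.1%), against 9.99%. Of the 14, 4 were among the 11 members that the filter had left out. The share of members called higher, set beside that of all genes, thus depended on the filter.

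The members lower in transgenic blood had log2 fold changes between -4.59 and -0.37, and 6 of them lay under -2. ENSRNOG00000026759 and ENSRNOG00000012964, whose values are given above, differed most, with log2 fold changes of -4.59 (SE 0.32, edgeR adjusted p = 2.32e-05) and -3.40 (SE 0.31, edgeR adjusted p = 0.000118). ENSRNOG00000050534, named above for its wild-type values and not by rank here, was also lower (log2 fold change -2.84, SE 0.23, edgeR adjusted p = 5.77e-05). In each of the 3 genes, the transgenic and wild-type blood libraries did not overlap. All 3 were named above because a wild-type library reached the parenchyma range, and the rule capped transgenic blood below that range. Their direction was therefore close to fixed by the choice, and nothing more is read from it. In the other direction, log2 fold changes ran from 0.67 to 3.30. ENSRNOG00000013981 had 1.65, 2.495 and 1.07 CPM in transgenic blood and 0.181, 0.165 and 0.167 CPM in the wild-type libraries, on 7, 6 and 5 counts (log2 fold change 3.30, SE 0.41, edgeR adjusted p = 0.000546). It had 3.91, 4.09 and 3.93 CPM in the meninges and 39.0, 47.8 and 29.6 CPM in the parenchyma. ENSRNOG00000049437 had 40.9, 48.1 and 30.4 CPM in transgenic blood against 3.13, 4.99 and 4.61 CPM in the wild-type libraries (log2 fold change 3.22, SE 0.22, edgeR adjusted p = 2.32e-05). Its meninges libraries, at 47.2, 55.2 and 48.1 CPM, overlapped the blood range (log2 fold change 0.39, SE 0.23, edgeR adjusted p = 0.360), and its parenchyma libraries had 144.5, 275 and 242 CPM.

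ENSRNOG00000021334 was higher in transgenic blood than in the wild-type libraries (log2 fold change 1.42, SE 0.16, edgeR adjusted p = 0.000376) and higher in the meninges than in transgenic blood (log2 fold change 2.78, SE 0.24, edgeR adjusted p = 0.000199). Both comparisons use the same transgenic blood libraries. ENSRNOG00000036942 was among the 11 members not tested between genotypes: wild-type blood held 0, 5 and 0 counts of it, and transgenic blood 7, 9 and 7. ENSRNOG00000010331 barely passed in this comparison (log2 fold change -0.37, SE 0.12, edgeR adjusted p = 0.0484), and in 9 of 11 other settings it did not, with an adjusted p between 0.0613 and 0.275 in those 9. Of the genes most uneven in the parenchyma, ENSRNOG00000002045 had 0.330, 0.294 and 0.534 CPM in transgenic blood against 1.68, 1.10 and 1.30 CPM in the wild-type libraries (log2 fold change -1.85, SE 0.37, edgeR adjusted p = 0.00611). ENSRNOG00000005871 differed the other way, with 1.32, 1.27 and 0.890 CPM in transgenic blood against 0.104, 0.165 and 0.234 CPM (log2 fold change 2.79, SE 0.40, edgeR adjusted p = 0.00106). Neither gene overlapped between the genotypes.

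**Figure D4:**
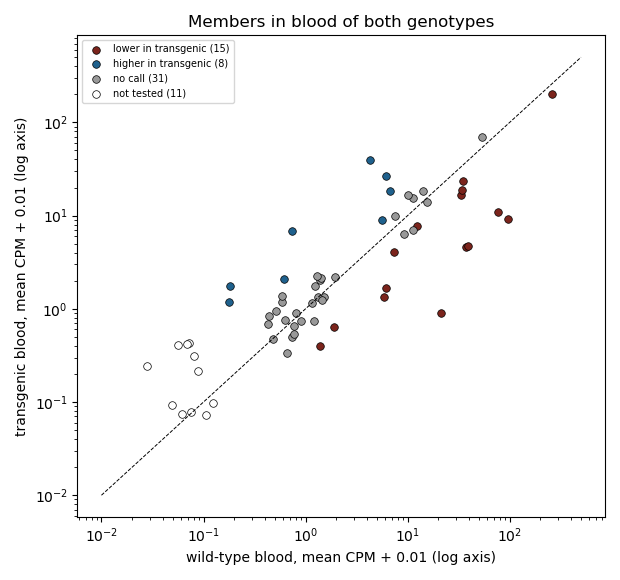
Mean CPM of each of the 65 members in wild-type blood (horizontal) and transgenic blood (vertical), both with 0.01 added and on log axes, coloured by the result of the edgeR test, with a dashed line at equal values. The 15 members lower and the 8 members higher in transgenic blood lie on either side of the line, and the 11 members not tested are those with the lowest counts.

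**Figure D5:**
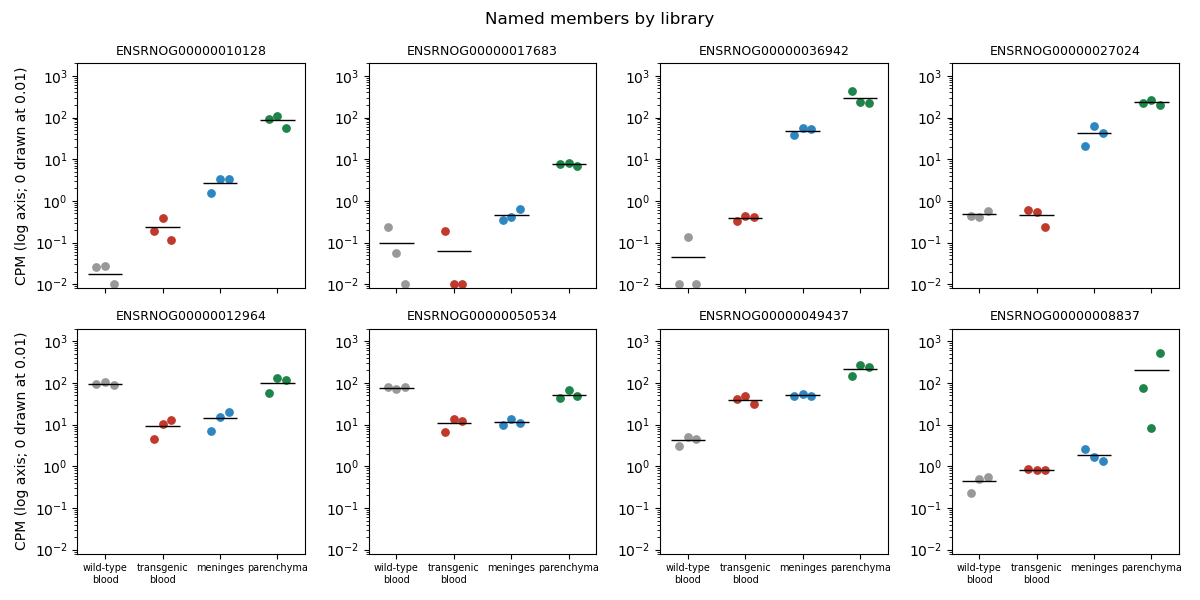
CPM of 8 named members in each of the 12 libraries (log axis, a value of 0 is drawn at 0.01), with a bar at the mean of each group of 3. ENSRNOG00000036942 and ENSRNOG00000027024 step up from blood to meninges to parenchyma, ENSRNOG00000012964 and ENSRNOG00000050534 are high in wild-type blood as well as in the parenchyma, and ENSRNOG00000008837 spreads from 8.29 to 521 CPM within the parenchyma.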

How the data were processed

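RNA of sorted T cells was measured in 12 libraries, and the group and replicate number of each came from the labels. The deposited values are whole-number counts per Ensembl rat gene. Per the submitters' processing notes, the authors worked on build rn6 with STAR 2.5 and featureCounts 1.5.0-p1. DESeq2 1.14.1 in R 3.4.2, bcl2fastq 2.17.1.14 and FastQC 0.11.5 are also named. Settings and strand are stated nowhere in these sources, so overlapping or near-identical genes may share counts. The 65 members, the lists and the tests were chosen with earlier results of these data known. The rule leaves out 1 identifier, which is not reported here.

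CPM values use file totals. Tests were made with edgeR 4.0.16 in R 4.3.3 (quasi-likelihood F test, two-sided, TMM scaling, filterByExpr with a minimum count of 10, Benjamini-Hochberg adjustment over all genes tested, threshold 0.05), on 9 transgenic libraries for tissues (6 residual degrees of freedom) and 6 blood libraries for genotypes (4 residual degrees of freedom). The SE was taken as the absolute log2 fold change over the root of F. The procedure was also run on simulated data with changes placed in randomly drawn genes. Those genes were not chosen by the rule, and nothing is read from that run for the members. DESeq2 1.42.0 was an alternative, as were other scalings, filters, fits and omitted libraries. No replicates of a group agreed within sampling noise (lowest chi-square per degree of freedom 13.9). Gene lists, markers and promoter motifs that needed gene names could not be used. With no names, at most 2 identifiers per direction and comparison were printed, by largest ratio, mean or fold change, and others only where named as chosen after their values were seen.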

Additional observations from a re-analysis of the deposited data

How the results depend on the processing

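The number of members was 31 with a fold limit of 4, and between 65 and 176 when 1 of the 9 transgenic libraries was left out, the highest without parenchyma replicate 2. With TMM-scaled libraries it was 58, and other limits on level or added constant gave 52 to 83. A fold limit of 2 gave 87. Members higher in the meninges than in blood numbered 26 to 32 when 1 library of those groups was left out, 41 with DESeq2 and 36 without parenchyma replicate 3, a setting chosen after the data were seen, and none was called lower (0 members) in any setting run. Members higher in transgenic than in wild-type blood numbered 14 without the filter on low counts, when all 65 were tested, and 7 to 10 when 1 library was left out, with 13 to 15 lower. DESeq2 gave 12 higher and 16 lower, and the fit of all 12 libraries 11 higher and 15 lower. With an absolute log2 fold change above 1 also required, 7 were higher and 10 lower. With the replicate number as a block, 35 members were higher in the meninges, and 10 were higher and 15 lower in transgenic blood. The share of all genes called is not given for these settings, except for the fit without the filter on low counts, reported above. That share changed with the fit where it is given, so steady counts alone do not show steady results. Over all tissues the replicate numbers did not pair the samples consistently. Of 9 same-numbered pairs of transgenic libraries, 2 had deviations correlated above 0.1. Of 18 combinations of a library with another tissue, 6 correlated best with their own number. The 2 pairs were both of blood with meninges, where correlations for numbers 1, 2 and 3 were 0.270, 0.288 and 0.0511. Same-numbered pairs with a parenchyma library had -0.328 to 0.0215. Whether blood and meninges libraries were paired is not known from the labels. Of 17 tests of single named genes, none changed direction (0 reversed). In the fit of all 12 libraries ENSRNOG00000002045 (log2 fold change -1.87, edgeR adjusted p = 0.155) and ENSRNOG00000005871 (2.78, edgeR adjusted p = 0.102) missed the threshold between genotypes with fold changes close to those of the blood fit (-1.85 and 2.79), and the cause was not tested. Between genotypes, 11 members were tested only without the filter on low counts, on at most 0.612 CPM in any blood library.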
